A study of Drosophila melanogaster with 8 samples.

Results

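The 8 cell death genes hid, rpr, grim, skl, Dronc, Drice, Diap1 and p53 were followed in whole Drosophila melanogaster embryos that differed in zen, the gene of a homeodomain factor of the dorsal side. They were taken by their FlyBase symbols, and all 8 had a row among the 17468 gene IDs of the count files. RNA-seq libraries were made from homozygous embryos, which carry zen[7] on both copies of chromosome 3, and from heterozygous embryos, which carry zen[7] over TM3, ftz-lacZ, a multiply inverted balancer of chromosome 3 with a lacZ transgene. Each genotype was collected at stage 6-7 (gastrula) and at stage 5 (cellular blastoderm), with 2 libraries of pooled embryos per group (N = 100 for the pooling, per the labels' protocols) and 8 libraries in 4 groups. Every group carries the zen[7] allele by its label, so none is wild type. Homozygotes were picked, per the labels' protocols, by the absence of a lacZ PCR band beside a control band. A lacZ band marks TM3 but does not by itself show what the other chromosome 3 carries. The heterozygous genotype was therefore taken from the labels. The comparisons asked how the members differ between the genotypes at each stage, between the stages in each genotype, and whether the genotype difference changes with stage.

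In flies, Diap1 is the inhibitor of apoptosis protein (IAP) that binds caspases and keeps cells alive. The proteins of hid, rpr, grim and skl bind Diap1 through a short N-terminal motif and free the caspases: Dronc, the initiator caspase, and Drice, an effector caspase that Dronc cleaves. Deletion of the chromosomal region that holds hid, grim and rpr removes nearly all programmed cell death from the embryo, and p53 is the transcription factor that turns on rpr and other death genes after irradiation. The amnioserosa, an extraembryonic epithelium of the dorsal side, needs zen, the gene mutated here.

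Every member lies on chromosome 3, the chromosome on which the genotypes differ throughout. By the Ensembl annotation of build BDGP6.54, hid (FBgn0003997, 18167745 to 18185641), grim (FBgn0015946, 18302719 to 18304417), rpr (FBgn0011706, 18397535 to 18398435) and skl (FBgn0036786, 18438561 to 18439942) follow each other on the minus strand of arm 3L within 272.2 kb. Diap1 (FBgn0260635, minus strand, 16038410 to 16051034) and Dronc (FBgn0026404, plus strand, 9968479 to 9971002) lie on the same arm. Drice (FBgn0019972, plus strand, 29799658 to 29801584) and p53 (FBgn0039044, minus strand, 23049657 to 23054082) lie on arm 3R. An effect of zen at these loci and a difference between the zen[7] chromosome and TM3 cannot be told apart in a comparison of these genotypes.

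Gene counts summed to 29669956 to 37770105 per library, and the summed level of the cellularization genes slam, nullo, bnk, halo and Sry-alpha was 32.3 to 42.8 CPM (gene counts relative to TMM-scaled library sizes) at stage 6-7 and 2200 to 3150 CPM at stage 5, with Sry-alpha at 0 in every library. The RNA of zen stood at 58.94 and 53.8 CPM in homozygotes, against 40.98 and 58.25 CPM in heterozygotes, at stage 6-7 (log2 0.18, adjusted p = 1 by edgeR), and at 153.8 and 133.9 CPM in homozygotes, against 112.2 and 106.1 CPM in heterozygotes, at stage 5 (log2 0.40, adjusted p = 0.234). It overlapped at stage 6-7 and was apart, higher in homozygotes, at stage 5, so its level does not check the genotype labels. Of the 8 amnioserosa markers, 6 fell in homozygotes at each stage, and none was at 0 in any library. Of these markers 4 lie on chromosome 3, where an effect of zen and a chromosome difference cannot be told apart. Of 3 pole cell, 4 mesoderm, 4 neurectoderm, 3 head and 3 segment polarity genes tested, none was called by genotype by edgeR, DESeq2 or limma-voom. By edgeR 1 of the 17 had an unadjusted p under 0.05 at stage 6-7 and 5 at stage 5. Of all tested genes 12.3% had one at stage 5, and the stage 6-7 share is not given here. Of 4 cellularization genes only nullo was called, lower in homozygotes at stage 5. At stage 5 the median log2 differences of the pole cell, mesoderm, neurectoderm and head genes were -0.03, -0.14, -0.08 and 0.21, and that of the segment polarity genes was -0.55. The segment polarity genes, which rose with stage, summed to 87.0 and 123 CPM in homozygous stage 5 libraries, against 128 and 113 CPM in heterozygous ones. A difference in age between the stage 5 pools was not tested. Homozygous stage 5 replicate 1 and heterozygous stage 6-7 replicate 1 stood apart from the other libraries of their stage on the first principal component (-56.2 against -42.1 to -45.1, and 38.9 against 48.8 to 51.1), and a call that changed without both is given as such beside its result. Since whole embryos were sequenced, fewer cells of a type and less RNA per cell cannot be told apart for any gene.

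All 8 members passed the low-count filter and were tested. The other 7 had between 69 and 10929 counts per library, while grim had 2 to 17 counts per library and reached the filter's 0.289 CPM in 4 of 8 libraries. By edgeR's quasi-likelihood test, adjusted by Benjamini and Hochberg over all 9360 genes tested, 1 member was called by genotype at stage 6-7 (p53, higher) and 1 at stage 5 (hid, lower), where 1.77% and 1.62% of all tested genes were called. Higher calls made up 0.524% and lower calls 1.25% of all tested genes at stage 6-7, and lower calls 1.34% at stage 5. Among genes on chromosome 3 these shares were 3.21% at stage 6-7 and 2.27% at stage 5. The median genotype difference of the 8 members was -0.03 on the log2 scale at stage 6-7 and 0.08 at stage 5, beside 0.01 and 0.00 over all tested genes. With stage, 6 members were called in homozygotes (5 higher, 1 lower) and 5 in heterozygotes (4 higher, 1 lower). Of all tested genes 60.1% were called with stage in homozygotes and 54.9% in heterozygotes. The libraries of the genotypes did not overlap for 7 of 8 members at stage 6-7 and 3 of 8 at stage 5, beside 36.2% and 42.4% of all tested genes. Those of the stages did not overlap for 8 of 8 members in homozygotes and 5 of 8 in heterozygotes, beside 81.1% and 78% of all tested genes.

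**Figure D1:**
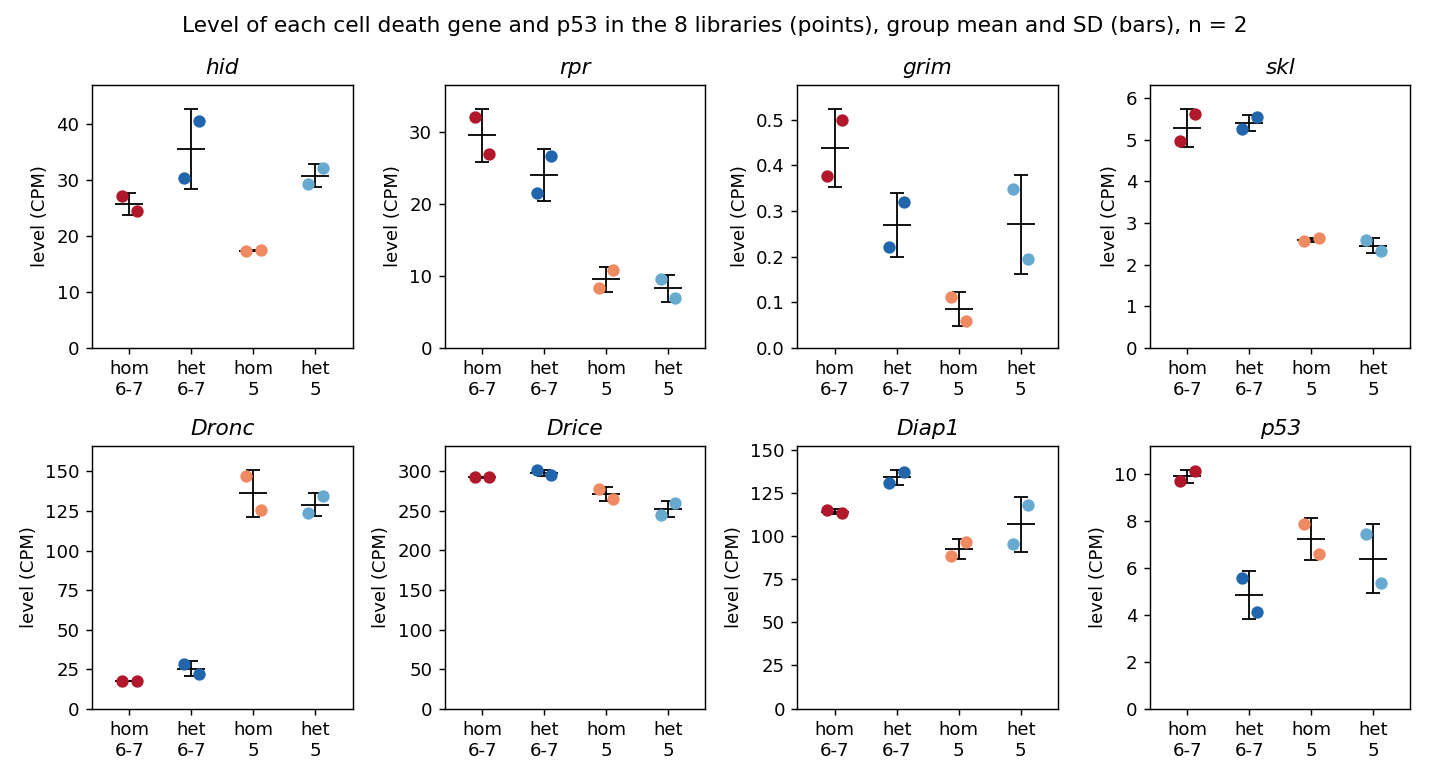
Level in CPM of each of the 8 genes in every library (points; hom, homozygous; het, heterozygous; stage 6-7 or 5), with the group mean and SD as bars (n = 2 libraries). Levels of hid lay lower in both homozygous stage 5 libraries (17.3 and 17.4 CPM) than in any other library, p53 was highest in the homozygous stage 6-7 libraries (9.68 and 10.1 CPM), and Dronc dropped steeply with stage in both genotypes.

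Among the IAP antagonists, hid was the 1 member called by genotype at stage 5, where its RNA was lower in homozygotes. Its level was 17.3 and 17.4 CPM in homozygous stage 5 libraries, against 29.3 and 32.2 CPM in heterozygous stage 5 libraries. Both homozygous libraries lay below both heterozygous ones, with nearly the same value. The means were 17.4 ± 0.0692 CPM in homozygotes and 30.7 ± 2.06 CPM in heterozygotes (SD, n = 2 each), a log2 difference of -0.82 (SE 0.14, adjusted p = 0.00647 by edgeR), or 1.77-fold, and 3.8% of all tested genes had a lower value. The call did not hold when heterozygous stage 5 replicate 2 was left out (adjusted p = 0.0572) or when tested against a 1.5-fold change (adjusted p = 1), and over the 20 alternative settings the adjusted p ran from 1.76e-08 to 1 with a log2 difference of -0.89 to -0.79. The summed level of the 8 amnioserosa markers, 4 of them on chromosome 3, moved with genotype in these libraries too. It was 232 to 238 CPM in homozygotes and 423 to 458 CPM in heterozygotes, and its part in the hid difference was not tested.

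At stage 6-7 the hid difference kept its direction but did not pass the threshold. Homozygous libraries held 27.0 and 24.4 CPM, against 30.4 and 40.6 CPM in heterozygous libraries. The homozygous values were again both lower, while the heterozygous pair differed widely. The log2 difference was -0.47 (SE 0.13, adjusted p = 0.141 by edgeR), and it was called under 4 of 20 settings, among them without heterozygous stage 6-7 replicate 1 (log2 -0.66, adjusted p = 0.0198) and without both libraries that stood apart (log2 -0.65, 0.00284). Without heterozygous stage 6-7 replicate 2, the higher of that pair, it shrank to -0.24 (adjusted p = 0.723). The difference between the stages' genotype effects was 0.36 (SE 0.19, adjusted p = 0.793 by edgeR), so hid was not shown to differ less at stage 6-7 than at stage 5.

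Neither rpr nor skl was called by genotype. For rpr, whose RNA marks cells about to die in later embryos, homozygous libraries held 32.1 and 26.9 CPM at stage 6-7, against 21.5 and 26.6 CPM in heterozygous ones, while at stage 5 homozygous libraries held 8.29 and 10.8 CPM, against 9.60 and 6.92 CPM in heterozygous ones. The log2 differences were 0.30 (SE 0.17) at stage 6-7 and 0.21 (SE 0.19) at stage 5, with adjusted p of 0.869 and 0.656 by edgeR. For rpr the groups were apart at stage 6-7, by a narrow margin, and overlapped at stage 5. For skl, the gene at the other end of the cluster, homozygous libraries held 4.96 and 5.61 CPM at stage 6-7, against 5.26 and 5.53 CPM in heterozygous ones, and the groups overlapped at both stages. Its log2 differences were -0.03 (SE 0.18) at stage 6-7 and 0.08 (SE 0.20) at stage 5, with adjusted p of 1 and 0.887 by edgeR.

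The gene grim, the other IAP antagonist of the cluster, was close to the detection limit. Its counts were 14 and 17 in homozygous stage 6-7 libraries, against 8 and 11 in heterozygous ones, and 3 and 2 in homozygous stage 5 libraries, against 12 and 7 in heterozygous ones. Neither genotype difference passed the test (adjusted p = 1 and 0.374 by edgeR). Of the exon length of grim, 44.1% is shared with asRNA:CR45974 on the opposite strand and 31.8% with lncRNA:CR45975 on the same strand, both with 0 counts in every library, and reads in such shared stretches may have been left uncounted.

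With stage, rpr and skl rose in both genotypes. For rpr the log2 change, stage 6-7 over stage 5, was 1.62 (SE 0.18, 3.08-fold) in homozygotes and 1.54 (SE 0.18, 2.91-fold) in heterozygotes (adjusted p = 3.72e-06 and 7.14e-06 by edgeR), and it passed under all 20 alternative settings in each genotype. Of all tested genes 5.9% had a higher value in homozygotes and 4.4% in heterozygotes. For skl homozygous libraries held 4.96 and 5.61 CPM at stage 6-7, against 2.56 and 2.63 CPM at stage 5, and heterozygous libraries 5.26 and 5.53 CPM at stage 6-7, against 2.58 and 2.32 CPM at stage 5. Both stages were apart in each genotype, with log2 changes of 1.02 (SE 0.19, 2.03-fold) in homozygotes and 1.14 (SE 0.19, 2.2-fold) in heterozygotes (adjusted p = 0.000389 and 0.000165 by edgeR), and these passed under all 19 settings that tested it.

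The gene hid rose with stage in homozygotes, by 0.56 on the log2 scale (SE 0.14, adjusted p = 0.00272 by edgeR), though not when tested against a 1.5-fold change (0.584). In heterozygotes its change was 0.21 (SE 0.13, adjusted p = 0.205), and the libraries of the stages overlapped. It was called under 3 of 20 settings, among them without heterozygous stage 6-7 replicate 1 (log2 0.40, adjusted p = 0.0208) and without both libraries that stood apart (log2 0.38, 0.00659). The difference between these changes is the interaction given above, which was not called. The counts of grim were higher at stage 6-7 than at stage 5 in homozygotes, 31 against 5 summed over the pair of libraries, and equal in heterozygotes at 19 and 19. The rise in homozygotes was called (adjusted p = 0.0086 by edgeR), but not without homozygous stage 5 replicate 2 (adjusted p = 0.0724), without homozygous stage 6-7 replicate 2 (0.059) or with a replicate term within stage (0.115, log2 1.71 in place of 2.35).

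Dronc, the initiator caspase, whose RNA is also supplied to the egg by the mother, had the deepest change of the 8 genes. Homozygous libraries held 17.4 and 17.4 CPM at stage 6-7, against 147 and 126 CPM at stage 5, and heterozygous libraries 28.5 and 21.8 CPM at stage 6-7, against 124 and 134 CPM at stage 5. The stages were far apart in both genotypes. Dronc fell 7.81-fold in homozygotes (log2 -2.97, SE 0.13, adjusted p = 7.64e-10 by edgeR) and 5.13-fold in heterozygotes (log2 -2.36, SE 0.13, adjusted p = 4.82e-09), and 1.3% of all tested genes had a lower value in homozygotes and 2.0% in heterozygotes. Both calls held under all 20 alternative settings. The cellularization markers, which are made at stage 5 and then removed, fell in the same libraries, and their part in the Dronc change was not tested.

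Between the genotypes Dronc was not called at stage 6-7, where its p lay near the threshold. Both homozygous libraries (17.4 and 17.4 CPM) lay below both heterozygous libraries (28.5 and 21.8 CPM), a log2 difference of -0.53 (SE 0.13, adjusted p = 0.0585 by edgeR). It was called lower under 7 of 20 settings, including DESeq2 (adjusted p = 0.0081), without either of the homozygous stage 5 libraries (0.0254 and 0.0261) and without heterozygous stage 6-7 replicate 2 (log2 -0.71, 0.0123), and over all 20 the adjusted p ran from 0.000266 to 1. Without heterozygous stage 6-7 replicate 1 the difference shrank to -0.33 (adjusted p = 0.515), and without both libraries that stood apart to -0.32 (0.0949). At stage 5 the groups overlapped, at 147 and 126 CPM in homozygotes and 124 and 134 CPM in heterozygotes (log2 0.08, SE 0.12). The difference between the stages was -0.61 (SE 0.18, adjusted p = 0.343 by edgeR), and it was called under 1 of 19 settings.

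Drice, the effector caspase, was the most abundant of the 8 genes per length and the steadiest. It ranged from 245 CPM in heterozygous stage 5 replicate 1 to 301 CPM in heterozygous stage 6-7 replicate 1, over all 8 libraries. Homozygous libraries held 292 and 293 CPM at stage 6-7, against 301 and 296 CPM in heterozygous ones, while at stage 5 homozygous libraries held 277 and 265 CPM, against 245 and 260 CPM in heterozygous ones. The log2 differences between the genotypes were -0.03 (SE 0.08) at stage 6-7 and 0.10 (SE 0.08) at stage 5, not called, although the groups did not overlap at either stage. With stage, Drice rose in heterozygotes by 0.24 on the log2 scale (SE 0.08, adjusted p = 0.0174 by edgeR) and had a change of 0.11 (SE 0.08, adjusted p = 0.246) in homozygotes. The heterozygous call was lost without stage 5 replicate 1 (adjusted p = 0.156), stage 5 replicate 2 (0.0829) or stage 6-7 replicate 1 (0.0637) of that genotype, and against a 1.5-fold change (1).

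Diap1, the inhibitor that the antagonists bind, lay slightly lower in homozygotes without passing the test. Homozygous libraries held 115.2 and 113.1 CPM at stage 6-7, against 130.7 and 137.0 CPM in heterozygous ones, while at stage 5 homozygous libraries held 88.4 and 96.7 CPM, against 95.5 and 117.7 CPM in heterozygous ones. The groups were apart at stage 6-7 and overlapped at stage 5. The log2 differences were -0.23 (SE 0.10, adjusted p = 0.614 by edgeR) and -0.20 (SE 0.10, adjusted p = 0.437), and neither was called under any of the 20 settings. At stage 5 the difference ranged from -0.35 without heterozygous stage 5 replicate 1 and -0.32 without homozygous stage 5 replicate 2 to -0.08 without heterozygous stage 5 replicate 2. With stage, Diap1 rose in homozygotes by 0.30 (SE 0.10, adjusted p = 0.0211) and in heterozygotes by 0.33 (SE 0.10, adjusted p = 0.0144) on the log2 scale. The homozygous call was lost without homozygous stage 5 replicate 1 (adjusted p = 0.0987), stage 6-7 replicate 1 (0.0979) or stage 6-7 replicate 2 (0.072) and without both libraries that stood apart (0.0931), and the heterozygous call without heterozygous stage 5 replicate 1 (log2 0.18, 0.231) or stage 6-7 replicate 2 (0.0773). Neither call held against a 1.5-fold change (adjusted p = 1 in both). asRNA:CR45889 on the opposite strand shares 11% of the Diap1 exon length and had at most 5 counts in any library. lncRNA:CR43951, also on the opposite strand, lies within the span of Diap1 and shares no exon with it. It had 3 to 5 counts per library at stage 6-7, against 11 to 28 at stage 5, and fell with stage in homozygotes (log2 -1.62, SE 0.58, adjusted p = 0.0272 by edgeR) and heterozygotes (log2 -2.77, SE 0.56, adjusted p = 0.000724), but was not called by genotype.

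The transcription factor gene p53 was the 1 member called higher in homozygotes, at stage 6-7. Homozygous libraries held 9.68 and 10.1 CPM, against 5.57 and 4.11 CPM in heterozygous libraries, with means of 9.89 ± 0.291 CPM in homozygotes and 4.84 ± 1.03 CPM in heterozygotes (SD, n = 2 each). The groups were well apart, and the counts behind them were 359 and 344 in homozygotes and 202 and 142 in heterozygotes. The log2 difference was 1.03 (SE 0.20, adjusted p = 0.0117 by edgeR), or 2.04-fold, and 1.3% of all tested genes had a higher value. The call was lost without homozygous stage 6-7 replicate 2 (adjusted p = 0.0781), without heterozygous stage 6-7 replicate 2 (log2 0.83, adjusted p = 0.131) and against a 1.5-fold change (0.404), and it was at the threshold without homozygous stage 6-7 replicate 1 (0.05). The adjusted p ran from 2.24e-06 to 0.404 over the 20 settings. By library totals, p53 passed the alternative filter of 10 CPM in 2 libraries only through the homozygous stage 6-7 libraries, so its call under that setting adds no support. The amnioserosa markers summed to 418 to 448 CPM in homozygotes and 774 to 891 CPM in heterozygotes in these libraries, and their part in the p53 difference was not tested.

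At stage 5 the p53 groups overlapped, at 7.84 and 6.58 CPM in homozygotes, against 7.43 and 5.34 CPM in heterozygotes (log2 0.17, SE 0.20, adjusted p = 0.747 by edgeR). The genotype effect at stage 6-7 minus that at stage 5 was 0.85 (SE 0.28, adjusted p = 0.457), so the stages were not shown to differ. The log2 change of p53, stage 6-7 over stage 5, was 0.46 (SE 0.19, adjusted p = 0.0555) in homozygotes and -0.40 (SE 0.20, adjusted p = 0.112) in heterozygotes, called under 10 and 3 of 20 settings. Without both libraries that stood apart, both were called (log2 0.58, adjusted p = 0.0252, and log2 -0.65, adjusted p = 0.0211). The heterozygous change was as small as -0.14 without heterozygous stage 5 replicate 1 (adjusted p = 0.654) and -0.20 without stage 6-7 replicate 2 of that genotype (0.515). It reached -0.65 without stage 5 replicate 2 (0.0344) and -0.63 without stage 6-7 replicate 1 (0.039). Among the settings that called the homozygous stage change was the filter of 10 CPM in 2 libraries. It adds no support, since p53 passed it only through the homozygous stage 6-7 libraries. The interaction was uncalled under all 19 settings that give one. Of the p53 exon length 38% is shared with asRNA:CR46089 on the opposite strand, which had 42 and 61 counts in homozygous stage 6-7 libraries, against 58 and 38 in heterozygous ones (log2 0.11, SE 0.33). Gr94a lies on the opposite strand within the span of p53, shares no exon with it and had a log2 difference of -0.22 (SE 0.47) there.

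**Figure D2:**
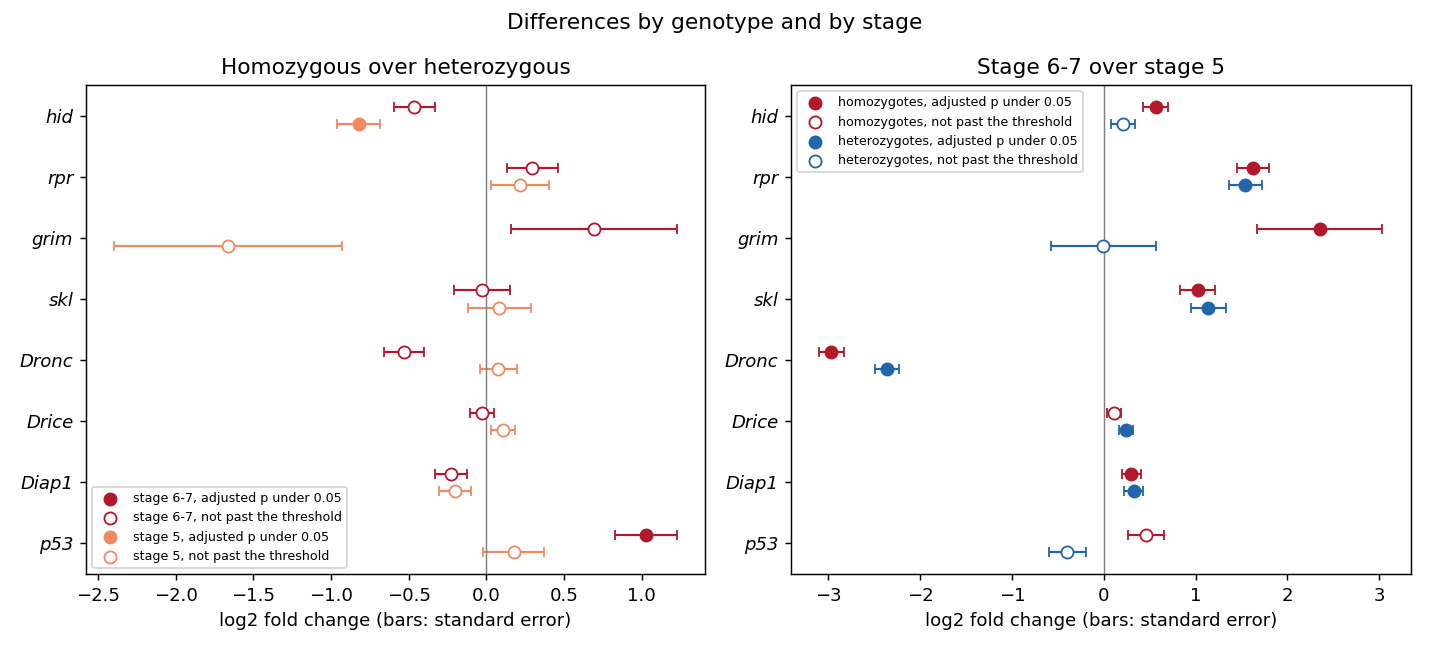
Log2 fold changes of the 8 genes with standard errors, homozygous over heterozygous at each stage (left) and stage 6-7 over stage 5 in each genotype (right); filled points passed the threshold of edgeR's test and open points did not. Between the genotypes only p53 at stage 6-7 (1.03) and hid at stage 5 (-0.82) are filled, while rpr, skl and Dronc changed with stage in both genotypes.

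No member was called for a genotype difference that changed with stage, beside 7 of 9360 tested genes (0.0748%). An unadjusted p under 0.05 was found for 3 of 8 members (p53, Dronc and grim) and for 6.72% of all tested genes, and DESeq2 and limma-voom called none either.

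Divided by the exon length of the annotation, the members spanned a wide range of levels. At stage 6-7 Drice led, with 152 CPM per kb in homozygotes and 155 CPM per kb in heterozygotes, followed by Diap1 with 36.3 CPM per kb in homozygotes and 42.6 in heterozygotes, and rpr with 32.8 in homozygotes and 26.7 in heterozygotes. In homozygotes Diap1 and rpr at that stage differed by 3.55 CPM per kb, less than the sum of their SDs (4.57). Dronc and hid came next, with 8.65 and 6.39 CPM per kb in homozygotes and 12.5 and 8.83 CPM per kb in heterozygotes. In heterozygotes Dronc and hid were apart by 3.65 CPM per kb, less than the sum of their SDs (4.12). At stage 5 Dronc was second to Drice, with 67.6 CPM per kb in homozygotes and 64.1 CPM per kb in heterozygotes, ahead of Diap1, rpr and hid, and rpr and hid overlapped in heterozygotes. The level of p53 stood above that of skl in homozygotes at stage 6-7 (4.63 and 3.82 CPM per kb) and below it in heterozygotes (2.27 and 3.91 CPM per kb), and grim was last in every group.

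The IAP antagonists as a sum stood at a higher level relative to Diap1 at stage 6-7 than at stage 5. Per length, hid, rpr, grim and skl summed to 1.26 and 1.12 times the level of Diap1 in homozygous stage 6-7 libraries and to 0.851 and 1.0 times in heterozygous ones. At stage 5 the ratio was 0.549 and 0.593 in homozygotes and 0.659 and 0.467 in heterozygotes. These values are descriptive and compare RNA, not protein. The make-up of the sum differed as well: rpr gave 77.2% and 74.2% of it in homozygous stage 6-7 libraries, against 67.5% and 67.4% in heterozygous ones, and 59.6% and 65.6% in homozygous stage 5 libraries, against 53.2% and 43.9% in heterozygous ones. The share of hid ran the other way, at 14.6% and 15.1% in homozygotes and 21.4% and 23.0% in heterozygotes at stage 6-7, and at 27.9% and 23.8% in homozygotes and 36.4% and 45.8% in heterozygotes at stage 5. Shares of the same sum are not independent, and a higher share of rpr leaves less for hid. Among the caspases, the ratio of Drice to Dronc per length was 17.5 and 17.6 in homozygotes and 11.1 and 14.2 in heterozygotes at stage 6-7, beside 1.97 to 2.21 in the stage 5 libraries.

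**Figure D3:**
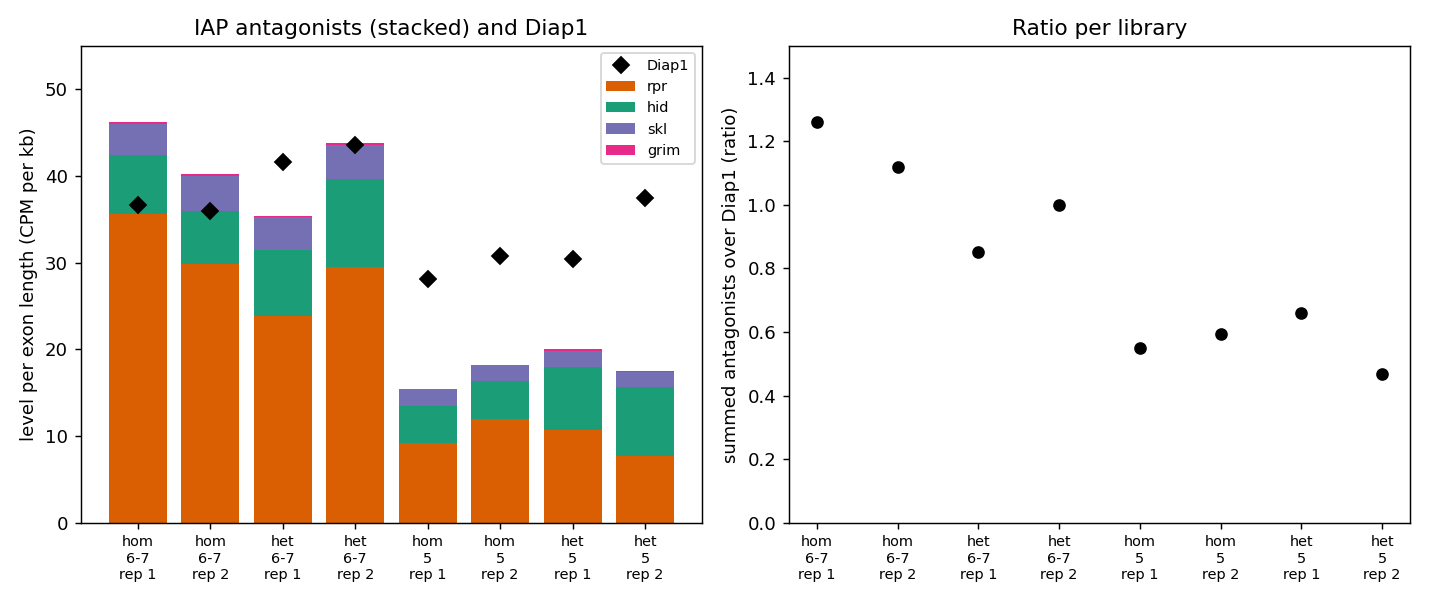
Left, levels per exon length (CPM per kb) of rpr, hid, skl and grim as stacked bars and of Diap1 as diamonds, for each library (hom, homozygous; het, heterozygous; stage 6-7 or 5; replicate); right, the ratio of the summed antagonists to Diap1. The ratio lies at 0.851 to 1.26 in the stage 6-7 libraries and at 0.467 to 0.659 in the stage 5 libraries, and rpr makes up most of the sum in all but 1 library.

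The genes around the members were compared between the genotypes as well. For them too, an effect of zen and a difference between the zen[7] chromosome and TM3 cannot be told apart. Of all tested genes on chromosome 3, 3.21% were called by genotype at stage 6-7 and 2.27% at stage 5. Of the 5 tested genes on each side of hid, 1 was called at each stage, and in the opposite direction: geko (arm 3L, 18139402 to 18145418), the nearest tested gene on one side, had 15.3 and 17.2 CPM in homozygotes, against 11.5 and 8.81 CPM in heterozygotes, at stage 6-7 and 101 and 107 CPM in homozygotes, against 59.9 and 53.4 CPM in heterozygotes, at stage 5. Its log2 differences were 0.68 (SE 0.13, adjusted p = 0.0147 by edgeR) and 0.88 (SE 0.12, adjusted p = 0.00166). On the other side lay grim, rpr and skl, none of them called. The median log2 difference of the 10 neighbours of hid was 0.13 at stage 6-7 (range -1.47 to 0.69) and 0.10 at stage 5 (range -1.66 to 0.88), so uncalled neighbours lay in both directions.

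Around p53, 2 of the 10 neighbouring genes were called at stage 6-7, both lower in homozygotes, beside 3.21% of all tested genes on chromosome 3. CG34375 (arm 3R, 23000139 to 23010562) had 3 and 2 counts in homozygotes, against 53 and 60 in heterozygotes, and CG6688 (arm 3R, 23012412 to 23015475) had 0 and 0, against 23 and 29. CG34375 was also lower at stage 5, with 13 and 13 counts in homozygotes, against 46 and 59 in heterozygotes (adjusted p = 0.026 by edgeR). The other 8 neighbours of p53 were not called at either stage, and the median of the 10 was -0.18 at both. Near Drice, kay, which encodes the fly Fos protein, fell in homozygotes at stage 6-7, to 4.83 and 5.58 CPM, against 13.9 and 17.7 CPM in heterozygotes (log2 -1.60, SE 0.17, adjusted p = 0.000113), and lncRNA:CR44953 had 0 and 0 counts in homozygotes, against 15 and 17 in heterozygotes (adjusted p = 0.00743). None of the 20 neighbours of Dronc and Diap1 was called by edgeR or limma-voom at either stage, and DESeq2 called dpr6 at stage 5. By edgeR 4 at each stage had an unadjusted p under 0.05, beside 12.3% of all tested genes at stage 5. The stage 6-7 share is not given here.

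**Figure D4:**
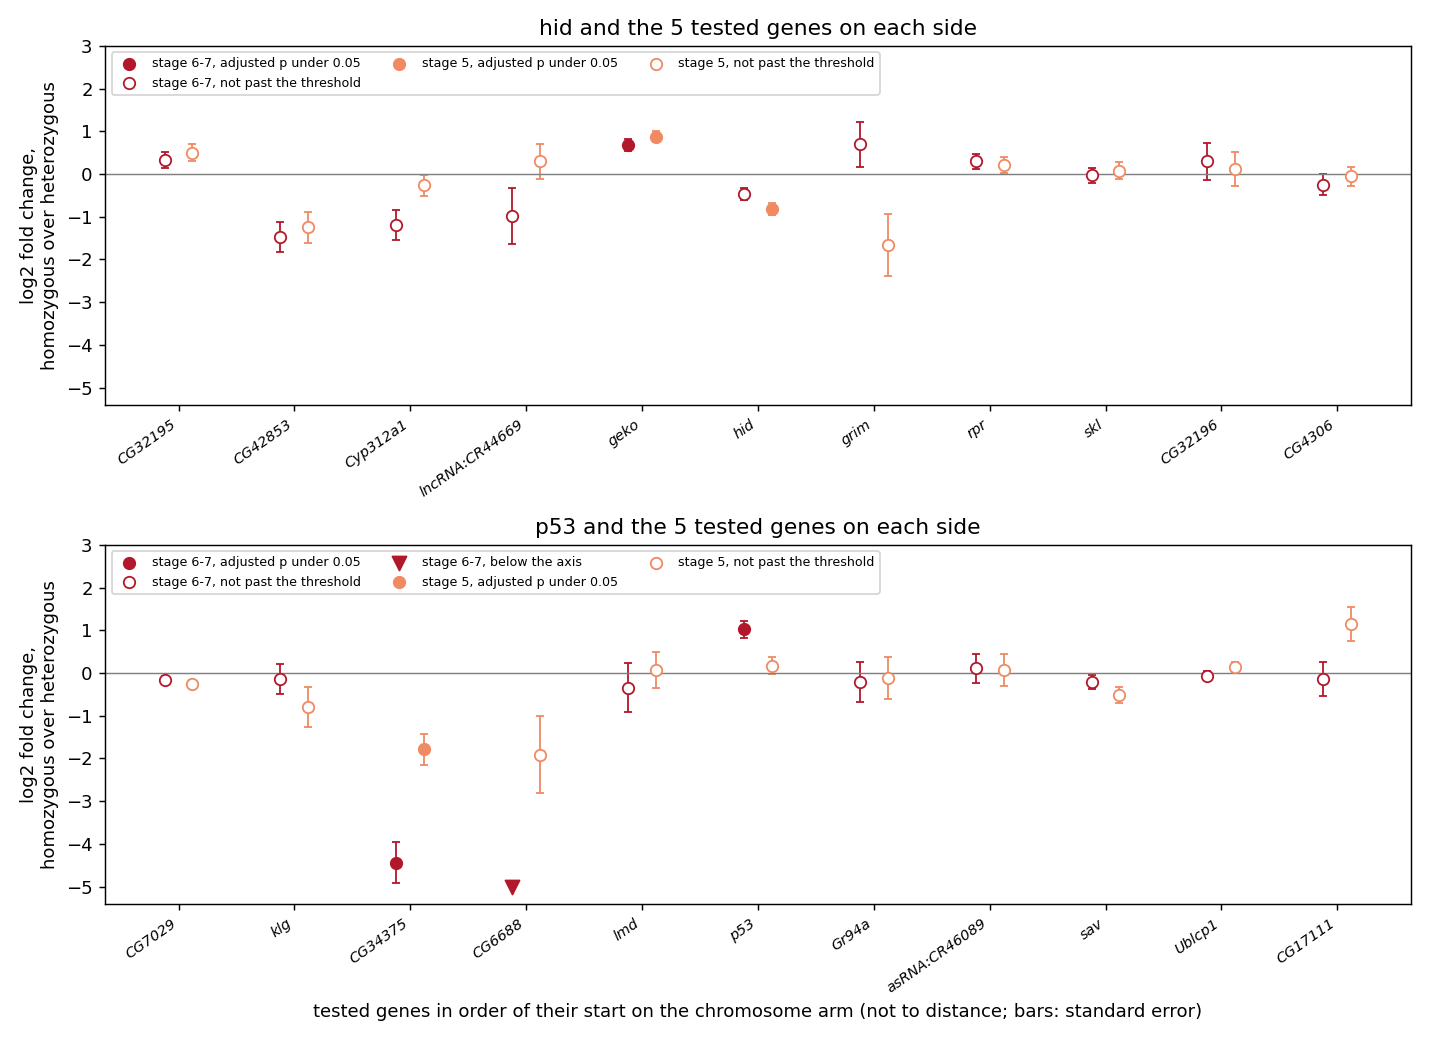
Log2 fold change, homozygous over heterozygous, with its standard error, for hid (top) and p53 (bottom) and the 5 tested genes on each side, in order of their start on the arm and not drawn to distance; the triangle marks CG6688, with 0 counts in homozygous stage 6-7 libraries and a fitted value below the axis. Next to hid (-0.82 at stage 5) stands geko (0.88), and next to p53 (1.03 at stage 6-7) no neighbour was called higher.

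The genotype calls in the wider death pathway were near the background share. Of 40 further genes in 6 lists, 38 were matched and 36 tested, and edgeR called 1 lower at stage 6-7, where the background was 1.77% of all tested genes, and 0 at stage 5, where it was 1.62%. In the stage 5 comparison 7 of the 36 had an unadjusted p under 0.05 (12.3% of all tested genes), DESeq2 called egr and limma-voom called 0. The median log2 difference of the 36 was 0.03 at stage 6-7 and -0.07 at stage 5, beside 0.01 and 0.00 over all tested genes. The 1 called was egr, the TNF ligand, counted here among the known p53-dependent irradiation targets. At stage 6-7 its level was 14.6 ± 0.7 CPM in homozygous and 93.0 ± 7.74 CPM in heterozygous libraries (SD, n = 2 each, log2 -2.67, adjusted p = 0.0249). At stage 5 egr held 112.6 and 54.89 CPM in homozygous libraries, against 171.7 and 194.0 CPM in heterozygous ones. The p53 groups were apart at stage 6-7 and overlapped at stage 5. A part of p53 in the egr difference was not tested. The other 5 genes of that list, Corp, Xrp1, Ku80, RnrL and Irbp18, had log2 differences of -0.12, 0.45, -0.01, 0.16 and -0.12 at stage 6-7, none called. Among the members, rpr, skl and hid, which p53 also activates after irradiation, had 0.30, -0.03 and -0.47.

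With stage, the lists had 21 of 36 genes higher and 4 lower in homozygotes and 18 higher and 5 lower in heterozygotes, against 31.1% higher and 29% lower of all tested genes in homozygotes and 28.4% and 26.5% in heterozygotes. The median log2 change of the 36 was 0.35 in homozygotes and 0.30 in heterozygotes, beside 0.00 and 0.02 over all tested genes. A pair of values after a gene of these lists gives its log2 change in homozygotes and then in heterozygotes. Of 6 engulfment genes, 5 rose in each genotype, among them NimC4, a receptor for dying cells (log2 1.82 and 1.55), and drpr, the engulfment receptor Draper (log2 0.88 and 0.78), and Ced-12 fell in heterozygotes (log2 -0.20, adjusted p = 0.0447). Of 8 DNA damage checkpoint genes, 6 rose in each genotype, led by rad50 (log2 1.31 and 1.08) and nbs (1.14 and 1.11), both of the double-strand break repair complex, and lok, the Chk2 kinase that acts on p53, rose by 0.51 and 0.53.

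Among 7 IAPs and their regulators, 4 rose and 1 fell in homozygotes, and 3 rose and 1 fell in heterozygotes. The gene morgue, whose product lowers Diap1, rose by 1.44 in homozygotes and 1.30 in heterozygotes on the log2 scale, while Diap2, another IAP, fell by 0.66 and 0.51. Of 5 tested caspase and adaptor genes, 2 rose in homozygotes (Dcp-1, an effector caspase, log2 0.23, and Dark, the apoptosome adaptor, 0.34), and in heterozygotes 1 rose (Dcp-1, 0.32) and 1 fell (Strica, log2 -1.03). Of 4 Bcl-2 family and mitochondrial genes, EndoG, a nuclease, rose in both genotypes (log2 0.90 and 0.86), and AIF, a mitochondrial flavoprotein, in homozygotes (0.29). Of the p53 target list, Ku80 and RnrL rose and Irbp18 and egr fell in both genotypes, and Corp fell in homozygotes (log2 -0.64).

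The genes whose levels most resembled each member were found by Pearson's r of log2 CPM over the 8 libraries, which share 4 groups, so that r mostly reflects stage and genotype. The nearest to hid were pav (r = 0.959) and NK7.1 (0.958), both on chromosome 3. The nearest to p53 were Gdap1 (0.956) and GNBP1 (0.952), both on arm 3L. The nearest to Dronc were term (0.998), a zinc-finger gene of the blastoderm on arm 3L, and CG6885 (0.998). For rpr they were CG30159 and CG13465 (0.997 each), for skl FBgn0019948 (with no match in the annotation) and CG6724 (0.997 and 0.996), for Drice Srp54 and CG30001 (0.984 and 0.978), for Diap1 Cda5 and cv-2 (0.982 and 0.973), and for grim CG6425 and CG12325 (0.968 and 0.950). Among the members themselves, rpr and skl resembled each other most (r = 0.966), Dronc ran opposite to both (-0.981 and -0.980), and hid and p53 had an r of -0.555.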

How the data were processed

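The authors deposited 1 file per library of raw read counts by gene ID. Alignment and counting used the tools STAR and HTSeq (submitters' processing notes). No version, build, annotation or strand setting is given in the sources used here. Overlapping genes may share reads, which cannot be assigned with certainty. HTSeq's summary lines, 12.89% to 18.22% of each total, were left out. Symbols and positions came by gene ID from the Ensembl annotation of BDGP6.54 (17188 of 17468 IDs matched). Levels per length use its merged exon length.

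Counts were scaled by TMM (factors 0.907 to 1.068), filtered by filterByExpr (minimum count 10) and tested with the quasi-likelihood functions of edgeR 4.0.16 (robust glmQLFit, glmQLFTest; R 4.3.3), with 1 mean per group over 8 libraries and Benjamini-Hochberg adjustment over 9360 genes, threshold 0.05. A standard error is the size of the log2 fold change divided by the root of F. Nothing says that the pools were separate collections beyond the design text's biological replicates, so the p-values cover only the spread of these libraries, whose number limits precision.

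Alternatives were RLE factors, library totals, TMM from genes off chromosome 3, no filter, 10 CPM in 2 libraries, DESeq2 1.42.0, limma-voom (limma 3.58.1), replicate terms, only the libraries compared, a glmTreat test against 1.5-fold, each library left out in turn or, added after seeing the components, both libraries that stood apart. A group then reduced to 1 library was assumed to vary as the other groups do. Members and lists were chosen with earlier results of these data known. The text names all members, up to 3 genes of smallest p per list with a call, overlapping genes, called neighbours (5 tested genes on each side) and the 2 genes of highest r per member (prior count 2). Genes of these lists beyond 3 per comparison are named to complete a count.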

Additional observations from a re-analysis of the deposited data

Results flagged for a closer look

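For 2 members the libraries of the genotypes did not overlap at either stage, with opposite directions of the genotype difference. The share of all tested genes with this pattern was not computed, so the count of 2 is not read as a result about the members. At a single stage the genotypes did not overlap for 36.2% of all tested genes (stage 6-7) and 42.4% (stage 5). Counts of grim were higher in homozygotes at stage 6-7 (14 and 17, against 8 and 11 in heterozygotes) and lower at stage 5 (3 and 2 in homozygotes, against 12 and 7 in heterozygotes), and the difference between the log2 effects was 2.36 (SE 0.91). Drice was slightly lower in homozygotes at stage 6-7 and slightly higher at stage 5, with a difference of -0.13 (SE 0.11). By the test of the interaction neither passed (edgeR adjusted p = 0.604 for grim and 0.849 for Drice).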

How the results depend on the processing

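Of 781 values of members under an alternative, 708 kept their direction and side of the threshold. The count of members called by genotype at stage 6-7, 1 as reported, was 3 without the low-count filter, 2 with DESeq2, 2 with a replicate block, 3 with a replicate block within stage, 2 without both libraries that stood apart and 0 against a 1.5-fold change, and it ran from 0 to 2 without each library. At stage 5 the count, 1 as reported, was 0 against 1.5-fold and 0 to 1 without each library. With stage, the count in heterozygotes, 5 as reported, was 3 against 1.5-fold and 3 to 6 without each library, and that in homozygotes, 6 as reported, ran from 4 to 8 over all settings. The interaction count, 0 as reported, was 1 without the filter (Dronc, adjusted p = 0.0164), and 0 without each library. The cause of these changes was not tested.

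Library totals alone moved the median log2 stage change of all genes by 0.20 in homozygotes and 0.15 in heterozygotes. With that shift included, Drice and p53 passed in homozygotes (adjusted p = 0.0038 and 0.0111) and hid in heterozygotes (0.0375).

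Uncalled log2 differences that turned sign were, without each library in turn, rpr (-0.042 to 0.467), skl (-0.027 to 0.159), Dronc (-0.045 to 0.138) and p53 (-0.083 to 0.429) by genotype at stage 5, skl (-0.121 to 0.055) by genotype at stage 6-7, hid (-0.016 to 0.401) and grim (-0.406 to 0.463) with stage in heterozygotes, and rpr (-0.169 to 0.334) and Diap1 (-0.154 to 0.119) in the interaction. Without both libraries that stood apart Dronc at stage 5 was -0.045, grim with stage in heterozygotes 0.222 and rpr in the interaction -0.225. With library totals grim was 0.147 and Diap1 in the interaction 0.018, and with limma-voom grim was 0.028.

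Replicate numbers did not pair the libraries: deviations of same-numbered libraries correlated at -0.062 to 0.043. Over all genes, 166 were called by genotype at stage 6-7, 152 at stage 5 and 7 in the interaction. These counts were 196, 249 and 38 under the replicate block, 233, 340 and 87 when that block was nested in stage, 285, 397 and 123 without the filter, 197, 255 and 57 with DESeq2, 168, 139 and 3 with limma-voom, 63, 25 and 3 against 1.5-fold and 299, 326 and 35 without both libraries that stood apart. Without each library they ran from 89 to 218, 66 to 805 and 3 to 296. The stricter filter left 88 at stage 6-7. Against 1.5-fold the stage counts were 2812 in place of 5629 in homozygotes and 2273 in place of 5142 in heterozygotes. No interaction could be fitted on only the libraries compared, and grim did not pass the main filter on the stage 5 libraries alone. The stricter filter was not passed by grim and skl, and by p53 only through the homozygous stage 6-7 libraries.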
